A study of Mus musculus with 20 samples.

Results

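Among the 20 sequencing runs of this CPEB4 immunoprecipitation study, 9 carried counts that could be read against named 3′ untranslated regions (3′ UTRs), and a single UTR, that of Lars2, divided these 9 runs. This UTR starts at 123461679 on chromosome 9 (mm10). It took 34.8 to 50.1% of all counts in 5 runs, called Lars2-rich here, and 1.16 to 5.40% in the other 4, called Lars2-poor. The members were chosen by this share, over 30% against under 6%, and no run of the 9 lay between. With the Lars2 row removed, every other UTR was compared between the 5 and the 4 runs. Because the sides were chosen from the counts themselves, all differences below are descriptions of these runs, and no test was made of them.

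The RNA came from CD8 T cells isolated from the spleen and lymph nodes of C57BL/6 mice, either wild-type (WT) or Cpeb4 knockout (KO). All cells had been activated for 48 h with anti-CD3 and anti-CD28 antibodies, each at 1 μg/ml, and IL-2 at 20 ng/ml. Each run was labelled either input, which was selected for poly(A) RNA and amplified over 12 PCR cycles, or immunoprecipitate (IP), which skipped that selection and had 7 cycles. The labels give neither the age of the mice, nor the nature of the knockout allele, nor whether libraries came from separate animals. By their labels, the Lars2-rich runs are WT input, KO input and WT IP of the set named D1, all sequencing batch 2, with WT input RIP8 batch 1 and KO input RIP8 batch 2. The Lars2-poor runs are labelled WT IP D1 batch 3, KO IP D1 batch 2, KO IP D1 batch 3 and WT input RIP8 batch 2. Each side thus holds both genotypes and both kinds of library, 4 input and 1 IP run against 1 input and 3 IP runs. The counts contradict some of these names, so neither side is read as a genotype, an input or an IP.

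CPEB4 binds cytoplasmic polyadenylation elements, short U-rich sequences of 3′ UTRs, and acts on the length of the poly(A) tail and on translation of the bound message. Lars2 encodes the mitochondrial leucyl-tRNA synthetase, which charges the mitochondrial tRNA for leucine. In T cells, activation raises the production of ribosomes, glycolytic enzymes and mitochondria, and these abundant housekeeping mRNAs are mostly short and stable. Messages of transcription factors and signalling proteins are in general less stable and often have long 3′ UTRs.

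The Lars2-rich runs were also the shallow ones. Their total counts lay between 364113 and 486758, or 192134 to 317395 without the Lars2 row, against 2605101 to 4182830 and 2464476 to 4085902 in the Lars2-poor runs. Levels are given per 1000000 counts outside the Lars2 row (CPM), so 1 count stood for 3.15 to 5.205 CPM in a Lars2-rich run and for 0.245 to 0.406 CPM in a Lars2-poor run. The gap in depth between the sides and the Lars2 share cannot be told apart. When every run was drawn down to 192134 counts, 10554 to 10831 rows held a count in the Lars2-rich runs and 9604 to 10161 in the Lars2-poor runs. The 10 leading rows other than Lars2 took 2.61 to 3.37% of the counts in the former and 5.05 to 8.53% in the latter, so the Lars2-poor runs were more concentrated in a few UTRs. The other 11 runs of the series could not be compared UTR by UTR, since their values do not stand in the order of the row names. Of 60 neighbouring rows with a shared start, 0 held identical counts in these 11 runs, against 25 of 49 in the 9 runs used. Their leading row, which has no usable name, split them in the same way. It took 35.0 to 88.2% in 5 runs of 371688 to 619373 counts and 2.32 to 5.36% in 6 runs of 3368427 to 5612280 counts.

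**Figure D1:**
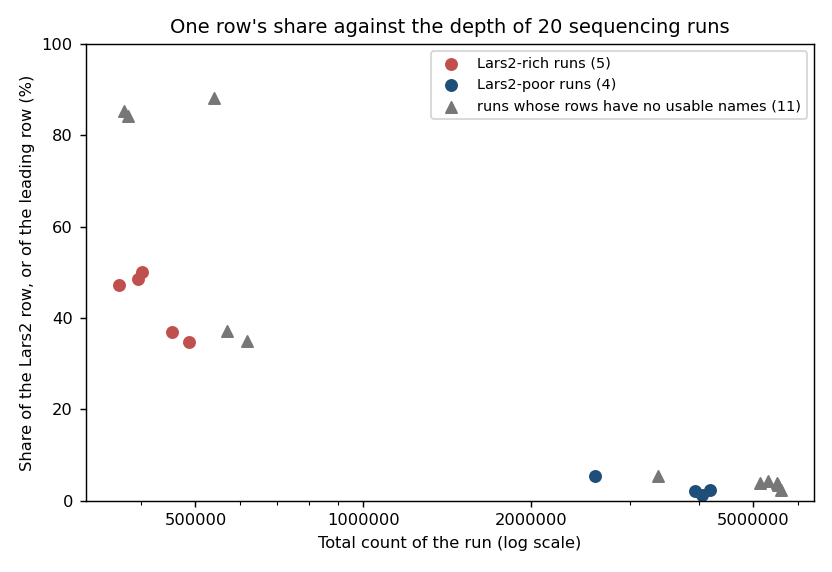
Share of a run's counts in the Lars2 row (for grey triangles, in the leading row of unknown name) in percent, against the run's total count on a log axis; each point is 1 of the 20 runs. The 5 Lars2-rich runs lie at 34.8 to 50.1% with at most 486758 counts, the 4 Lars2-poor runs at 1.16 to 5.40% with at least 2605101 counts, and the 11 other runs at 35.0 to 88.2% or at 2.32 to 5.36%.

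By rank correlation, runs resembled each other by side and not by name. Over the 6861 UTRs with a mean of at least 25 CPM, called counted here, the rank correlation was 0.831 to 0.931 in the 10 pairs of Lars2-rich runs. It was 0.7095 to 0.985 in the 6 pairs of Lars2-poor runs and 0.177 to 0.573 in the 20 pairs across the sides, values that share the depth of the runs. Both runs named WT IP D1 stood on opposite sides with a correlation of 0.212, and both named WT input RIP8 likewise with 0.538. The runs named KO IP D1, both Lars2-poor, reached 0.857, less than the 0.985 between KO IP D1 batch 3 and WT input RIP8 batch 2, which differ in genotype, fraction and set. After thinning to equal depth, a chi-square of the counts, divided by its degrees of freedom, was 13.6 to 30.8 for pairs across the sides. It was 1.04 to 4.47 within the Lars2-rich side and 1.21 to 13.7 within the Lars2-poor side. By this measure, pairs of Lars2-poor runs thus overlapped with pairs across the sides. By a limit of 1.5 on this ratio, the 3 D1 runs of the Lars2-rich side formed a near-identical set, as did both RIP8 runs of that side and, on the other, KO IP D1 batch 3 with WT input RIP8 batch 2. The 9 runs are therefore not 9 independent samples, and spreads given below as SD cover runs that may share a library.

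The RNA on both sides held messages of CD8 T cells. Cd8a, the CD8 coreceptor chain that defines these cells, had 1176, 1439.5, 1273, 1109 and 1016 CPM in the Lars2-rich runs, in the order WT input D1 batch 2, KO input D1 batch 2, WT IP D1 batch 2, WT input RIP8 batch 1 and KO input RIP8 batch 2. It had 719.7, 1116, 1170.2 and 1234 CPM in the Lars2-poor runs, in the order WT IP D1 batch 3, KO IP D1 batch 2, KO IP D1 batch 3 and WT input RIP8 batch 2, and both sides overlapped. All values by run below keep these orders. Of the other CD8 T cell markers, Cd8b1, Cd3d, Cd3g and Thy1 were lower in every Lars2-rich run than in any Lars2-poor run. Cd3e (297 to 523 against 295 to 895 CPM) and Lck (271 to 375 against 228 to 408 CPM) overlapped. Marker lists of other cells were low on both sides. Summed B cell markers reached 56.7 to 118 CPM in the Lars2-rich and 64.4 to 119.9 CPM in the Lars2-poor runs, and CD4 T cell markers 91.4 to 167 against 60.1 to 119 CPM. Myeloid markers had 22.1 to 74.03 against 86.02 to 109 CPM, with Cst3, a protease inhibitor, the counted one, at 0 to 14.8 against 47.9 to 74.7 CPM. Natural killer cell markers, several of which activated CD8 T cells also express, summed to 235 to 535 against 184 to 576 CPM. Stromal markers had 37.8 to 69.1 against 38.6 to 94.3 CPM, and erythroid and platelet markers at most 15.6 CPM. At 0 in all 9 runs were 1 of 12 named B cell markers, Pax5, and 1 of 7 CD4 T cell markers, Il4. So were 7 of 16 myeloid markers, among them Adgre1 and Cd14, and 5 of 12 stromal markers, among them Col3a1 and Cdh5. Other listed markers had counts, at most 128 per run for Cd79b, 154 for Csf1r, 192 for Foxp3, 280 for Zbtb7b and 289 for Pecam1. The listed markers Cd4, Cxcr5, Cd22, Ighm, Lyz2, Clec9a and Alas2 had no named UTR and were not measured. The sums above therefore leave them out. The part of other cell types in the differences below was not tested. In bulk RNA of this kind, fewer cells of a type and less RNA per cell cannot be told apart.

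The sides differed over much of the transcriptome. A UTR was called apart where the lowest run of one side exceeded the highest of the other and where the means of log2(CPM + 5) differed by at least 1. By this rule 1606 of the 6861 counted UTRs, or 23.4%, were higher in the Lars2-rich runs, and 1325, or 19.3%, were lower, together 42.7%. A further 451 differed by at least 1 but overlapped. The difference, Lars2-rich minus Lars2-poor on this log2 scale throughout, had a median of 0.17, quartiles of −0.85 and 1.08 and 5th and 95th percentiles of −2.59 and 2.40. The higher UTRs held 38.6 to 40.4% of the counts of each Lars2-rich run and 6.96 to 14.5% of each Lars2-poor run. The lower UTRs held 6.86 to 8.34% against 32.6 to 49.3%. Of the 1606 higher UTRs, 576 had a Lars2-poor mean under the floor of 25 CPM and entered only through their level in the Lars2-rich runs, as did 592 of the 1325 lower UTRs through the Lars2-poor runs.

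The balance of directions depended on how the runs were scaled. With TMM factors, which assume that most UTRs keep their level, the median difference moved by −0.45, and 990 UTRs were higher and 1922 lower, so that 34.0% of the calls were higher in place of 54.8%. With median-of-ratios size factors the shift was −0.33, with 1157 higher, 1746 lower and 39.9% of the calls higher. All 1325 lower UTRs stayed lower under both scalings, and 990 and 1157 of the 1606 higher UTRs stayed higher. Both scalings shift the differences down, so lower calls tend to be kept and higher calls lost. That all lower calls were kept does not show that they are more stable. Sequencing batch 2 held 4 of the Lars2-rich and 2 of the Lars2-poor runs, and among these alone 1680 UTRs were higher and 1426 lower. Differences below are on the CPM scale and are best read against the median of 0.17. Counts of calls in a list are best read against the 23.4% higher and 19.3% lower over all counted UTRs. Where another scaling moved the count of a gene list by over 1.5 times, its counts under that scaling are given as well.

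**Figure D2:**
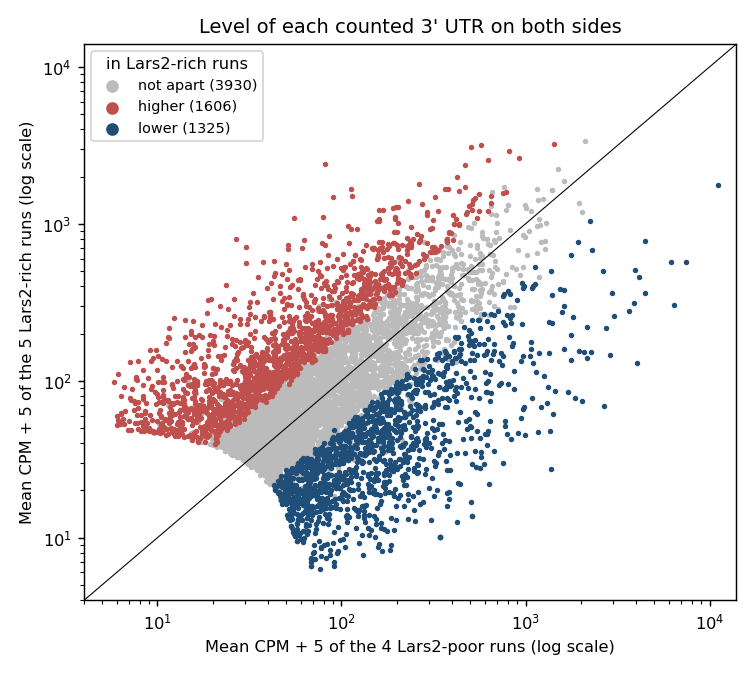
Mean CPM + 5 over the 5 Lars2-rich runs against that over the 4 Lars2-poor runs, both on log axes; each point is 1 of the 6861 counted UTRs. The 1606 higher and 1325 lower UTRs lie on both sides of the diagonal of equal level, over the whole range of levels.

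In the higher direction, the UTR with the widest gap between the sides belonged to Themis, which encodes a signalling protein of T cells needed for thymocyte selection (UTR start 28797507 on chromosome 10, mm10). It had 281, 265, 197, 233 and 249 CPM in the Lars2-rich runs and 4.26, 4.17, 11.8 and 8.81 CPM in the Lars2-poor runs. Every Lars2-rich run thus exceeded every Lars2-poor run many times over, and the difference was 4.39 with a pooled SD of 0.32. Prkcq, the protein kinase C theta of the T cell receptor pathway (UTR start 11260884 on chromosome 2), had 390.4, 429.9, 345, 236 and 214 CPM against 15.03, 13.03, 15.8 and 11.5 CPM. The Prkcq difference was 4.08 with a pooled SD of 0.35, and both RIP8 runs of the Lars2-rich side lay below its 3 D1 runs.

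Of the 12 genes, 3 have a part in RNA processing or bind RNA. The share of such genes among all counted UTRs was not taken, so this grouping is no result. Rbm4, an RNA-binding regulator of splicing and translation (UTR start 4784293 on chromosome 19), had 573, 665, 587, 451 and 564 CPM against 23.8, 30.2, 45.4 and 31.1 CPM, a difference of 3.95. Qk encodes Quaking, an RNA-binding protein of the STAR family (UTR start 10210179 on chromosome 17), and had 249.8, 179.9, 178, 195 and 161 CPM against 9.02, 11.99, 10.5 and 9.55 CPM. The Qk difference was 3.68 with a pooled SD of 0.19, the lowest of the 12 after that of Zfp451. Rbbp6, a ubiquitin ligase with a part in 3′-end processing (UTR start 122978682 on chromosome 7), had 265, 199.9, 232, 239 and 245 CPM against 8.02, 7.82, 12.6 and 13.7 CPM and differed by 3.97. In all 3 genes every Lars2-poor value lay far under the Lars2-rich ones. Ivns1abp, a protein first found through its binding to the influenza virus NS1 protein (UTR start 151355176 on chromosome 1), had 661, 659.8, 582, 447 and 459 CPM against 14.5, 15.4, 38.95 and 32.3 CPM and differed by 4.298.

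Both zinc finger genes in the group were high in all Lars2-rich runs. Zfp451, a SUMO ligase with zinc fingers (UTR start 33792136 on chromosome 1), had 1109, 1129.6, 1081, 1065 and 1146 CPM against 93.7, 63.8, 78.3 and 62.2 CPM. Its difference was 3.82 with the low pooled SD of 0.17. Zfp672 (UTR start 58327721 on chromosome 11) had 156, 155, 128, 88.2 and 105 CPM against 0, 2.87, 4.06 and 1.47 CPM and differed by 4.21. The Lars2-poor values of Zfp672 rest on 0 to 11 counts, which leaves the size of its difference less certain than that of Zfp451.

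The other genes of the group have no common role. Ms4a6b, a membrane protein of the MS4A family found in T cells (UTR start 11526681 on chromosome 19), had 1988, 1959, 1777, 1304 and 1247 CPM against 86.5, 95.4, 135 and 114 CPM and a difference of 3.87. Map4, a microtubule-associated protein (UTR start 110002754 on chromosome 9), had 93.7, 115, 109, 75.6 and 94.6 CPM against 1.002, 2.61, 4.06 and 2.94 CPM, a difference of 3.75. Has3, a hyaluronan synthase (UTR start 106878829 on chromosome 8), had 213, 245, 247, 123 and 224 CPM against 3.01, 5.99, 9.74 and 7.34 CPM and differed by 4.22. The lowest Lars2-rich value of Has3, that of WT input RIP8 batch 1, stood apart from the other 4. Megf11, a transmembrane protein with EGF-like repeats (UTR start 64705951 on chromosome 9), had 110.3 to 173 CPM against 1.002 to 6.61 CPM and differed by 4.15.

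At the other end, 8 of the 12 UTRs with the widest gap in the lower direction belonged to genes of the cytosolic ribosome. Rpl39, a short protein of the large subunit (UTR start 37082520 on chromosome X), had 52.05, 64.98, 69.1, 75.6 and 56.05 CPM in the Lars2-rich runs and 5197, 2575, 1327 and 1494 CPM in the Lars2-poor runs. Its difference was −5.06 with a pooled SD of 0.61, and WT IP D1 batch 3 was the highest run by far. Rpl18 (UTR start 45720790 on chromosome 7), also of the large subunit, had 10.4, 4.998, 0, 6.301 and 3.503 CPM against 578, 341, 217 and 212 CPM and differed by −5.06. Its Lars2-rich values rest on 0 to 2 counts per run. Rpl23 (UTR start 97777527 on chromosome 11) had 19.7 to 38.5 CPM against 484 to 562 CPM and differed by −3.95.

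Genes of the small subunit were among them. Rps26 (UTR start 128624530 on chromosome 10) had 67.7, 24.99, 44.4, 37.8 and 35.03 CPM against 2024, 961, 826 and 867 CPM, with WT IP D1 batch 3 again far above the other Lars2-poor runs, and differed by −4.601. Rps29 (UTR start 69157722 on chromosome 12) had 5.205 to 19.99 CPM against 317 to 502 CPM and differed by −4.48. Rps16 (UTR start 28352640 on chromosome 7) had 17.5 to 39.5 against 449.6 to 729 CPM and differed by −4.17. In all 3 the Lars2-rich runs lay far below the Lars2-poor runs.

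The remaining 4 UTRs of the group were outside the ribosome by name. Atp5b, the catalytic beta subunit of mitochondrial ATP synthase (UTR start 128090120 on chromosome 10), had 10.4, 19.99, 29.6, 28.4 and 35.03 CPM against 437, 475, 543 and 582 CPM and differed by −4.18. Nme2, a nucleoside diphosphate kinase (UTR start 93949814 on chromosome 11), had 10.4, 14.99, 4.94, 6.301 and 7.01 CPM against 1014, 470.0, 253 and 293 CPM and differed by −5.05. The predicted genes Gm10275 (UTR start 29698746 on chromosome 10) and Gm10288 (UTR start 146838775 on chromosome 3) had 9.996 to 31.5 against 785 to 2227 CPM and 3.503 to 10.4 against 339 to 544 CPM. Their differences of −5.61 and −5.08 were more negative than those of the 10 other genes of the group. Counts of such short predicted genes, like those of ribosomal protein genes, can include reads of near-identical copies, since it is not stated how multi-mapped reads were handled.

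**Figure D3:**
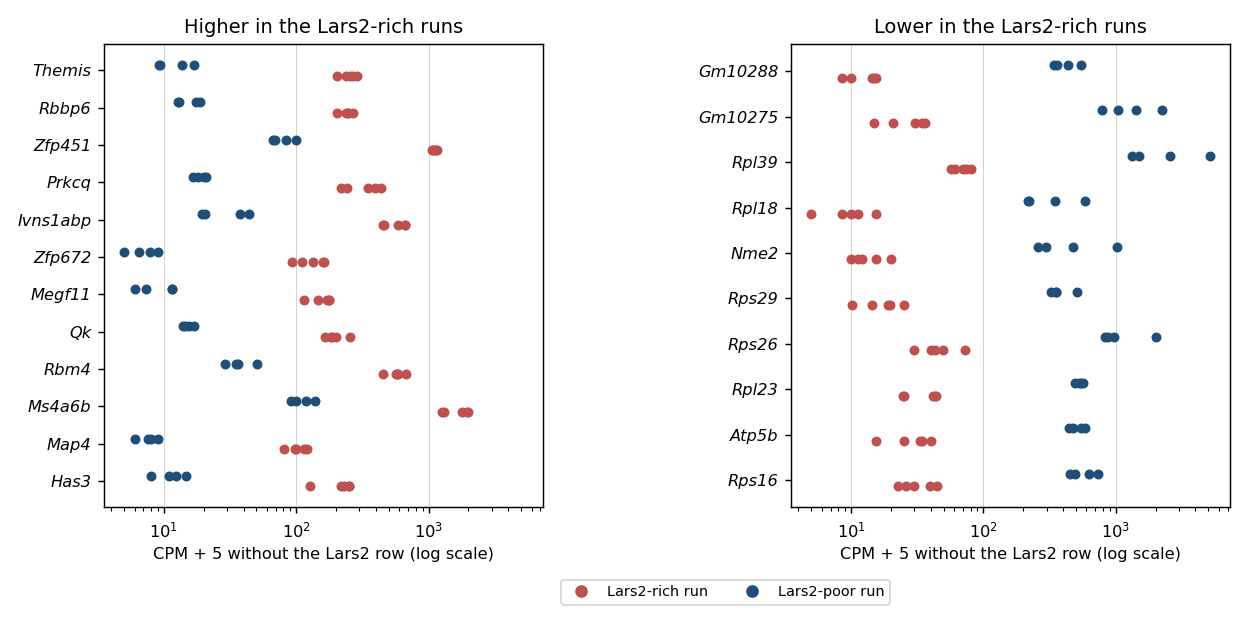
CPM + 5 without the Lars2 row, on a log axis, for the 12 UTRs with the widest gap in the higher direction and 10 of the 12 in the lower; each point is 1 run. In every gene shown, all 5 Lars2-rich runs lie clear of all 4 Lars2-poor runs.

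Ribosomal protein mRNAs as a group were low in the Lars2-rich runs. Of 72 counted UTRs of this list, 67 were lower and 1 higher, with a median difference of −3.59, against 19.3% lower, 23.4% higher and a median of 0.17 over all counted UTRs. The list took 77 named UTRs, which it picked by symbol, so it also holds Rpl7l1, a paralogue of Rpl7, which was not apart at −0.02. Summed over the list, the level was 3363 to 4530.4 CPM in the Lars2-rich runs and 26908 to 81153 CPM in the Lars2-poor runs, so the sum varied far more among the Lars2-poor runs. Its highest value there was that of WT IP D1 batch 3. Rpl41, which encodes the shortest ribosomal protein, had 526, 529.8, 602, 328 and 277 CPM against 5416, 5605, 2728 and 2827.8 CPM and differed by −3.16. Rplp1, a protein of the ribosomal stalk, differed by −4.42, Rps9 by −3.52 and Rpsa, the laminin receptor homologue of the small subunit, by −3.57. The exception was Rpl10a, of the large subunit, which was higher with 213, 239.9, 133, 107 and 133 CPM against 16.04, 51.1, 53.2 and 49.2 CPM and a difference of 1.89. Rps19 (0.061), Rps15a (−0.24) and Rpl9 (−0.87) were not apart.

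Ribosomal protein mRNAs of mammals begin with a C followed by a run of pyrimidines, the 5′ terminal oligopyrimidine motif, through which their translation follows mTORC1 activity. The annotated starts of 6 ribosomal protein genes whose UTR was lower are shown because they carry this motif. The sequences below are of GRCm38.p6 from RefSeq, 5′ to 3′ on the strand of the gene, with 5 bases before the annotated start and 20 from it, and the capitals mark the C and the 4 pyrimidines at the start.
Fau, chr19:6057942-6057966, plus strand: cacttCTTCCtctttcttgactcca
Rplp2, chr7:141447646-141447670, plus strand: tcttcCTTTCgccgccggacgccgc
Rps18, chr17:33955646-33955670, minus strand: ccgctCTCTCttccacaggaggcct
Rpl14, chr9:120571512-120571536, plus strand: tctctCTTCTcgctgagcgccgcca
Rpl28, chr7:4792960-4792984, plus strand: tgtctCTCTTtccgtctccggccgc
Rps21, chr2:180257374-180257398, plus strand: ccgccCTCCTgcccaatagtgctgc
A C with 4 further C or T at the annotated start, read on the strand of the gene only, occurred in 12 of 54 counted ribosomal protein genes with a start sequence, or 22.2%. The share was 3.01% of 27025 genes of the whole promoter table and 2.99% of the counted genes. It was 2.50% in the higher and 3.96% in the lower genes, and 2.88% in the lower genes that encode no ribosomal protein. The motif at this position was thus more frequent among the ribosomal protein genes than in the table, and its share among the other lower genes was close to that of the table. Annotated starts can miss the true start by a few bases, and a gene without the letters here is not thereby without the motif. Fau, a ubiquitin-like protein fused to a small-subunit protein, had 17.5 to 69.98 CPM against 517 to 3068 CPM and differed by −4.55. Rps18 had 7.01 to 88.8 against 469 to 1388 CPM, Rplp2 28.02 to 52.05 against 413 to 1964 CPM and Rpl28 9.45 to 49.04 against 349 to 605 CPM, with no overlap in any of them.

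Translation elongation factors lay on the same side. All 6 counted elongation factor UTRs, of 9 named, were lower, with a median difference of −3.02, where 19.3% of all counted UTRs were lower. Eef2, which moves the ribosome along the message, had 219, 245, 321, 221 and 256 CPM against 3558, 3409, 2680.1 and 2449 CPM and differed by −3.55, and Eef1b2, Eef1g and Eef1d differed by −3.76, −3.14 and −2.904. Of 17 counted cytosolic aminoacyl-tRNA synthetases, which load tRNAs with amino acids, 11 were lower, 0 higher and 6 not apart, with a median of −1.41. Lars, the cytosolic counterpart of Lars2, had 5.205, 14.99, 9.87, 31.5 and 17.5 CPM in the Lars2-rich and 52.1, 41.2, 40.98 and 49.2 CPM in the Lars2-poor runs and differed by −1.41. The runs were chosen by their Lars2 share, so a relation between Lars and Lars2 was not tested. With its difference at the list median of −1.41, Lars was typical of the cytosolic synthetases. Among other such enzymes Dars differed by −2.67, Hars by −2.92 and Sars by −1.11, while Aars (−0.29) was not apart.

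The mitochondrial synthetases, the family of Lars2 itself, had few counts. Apart from Lars2, 4 of 15 named UTRs were counted, 2 of them higher and 0 lower, where 23.4% of all counted UTRs were higher and 19.3% lower. Both higher ones, Tars2 and Nars2, had Lars2-poor means under the floor, 5.56 and 16.2 CPM. They were thus counted only through the Lars2-rich runs. With TMM and with median-of-ratios factors 1 was higher and 0 lower. Tars2, the threonyl enzyme, had 88.5, 74.97, 109, 81.9 and 112 CPM against 2.51, 4.69, 10.1 and 4.89 CPM and differed by 3.25. Nars2, the asparaginyl enzyme, had 31.2, 34.99, 34.5, 66.2 and 35.03 CPM against 7.27, 13.3, 19.1 and 25.2 CPM and differed by 1.13, with a narrow gap between the sides. Wars2 (0.54) and Hars2 (0.11) overlapped. The list median of 0.84 turned to −0.098 when every UTR with a count was taken, so the family as a whole had no settled direction.

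Genes of mitochondrial respiration followed the ribosomal proteins. Of 37 counted UTRs, of 65 named, 35 were lower and 1 higher, with a median difference of −2.83. Over all counted UTRs the shares were 19.3% lower and 23.4% higher. Cox7a2l, which takes part in the assembly of respiratory supercomplexes, had 104, 105, 133, 63.01 and 38.5 CPM against 1188, 803, 449.6 and 421 CPM and differed by −2.92. Atp5a1 and Atp5d, subunits of ATP synthase, differed by −3.51 and −2.99. The single higher UTR was that of Ndufb8, a subunit of complex I, with 72.9, 34.99, 54.3, 37.8 and 21.02 CPM against 7.52, 8.08, 7.304 and 6.36 CPM and a difference of 1.903. The summed level was 781 to 974 CPM in the Lars2-rich and 6117 to 9068 CPM in the Lars2-poor runs.

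Glycolytic genes were lower or not apart, with Eno2 as the exception. Of 20 counted UTRs 10 were lower and 1 higher, against 19.3% and 23.4% of all counted UTRs, and the median difference was −1.62. Pkm, the pyruvate kinase, had 546, 439.8, 503, 1248 and 1114 CPM against 2683, 4218, 5425 and 5440.4 CPM and differed by −2.601. Tpi1 and Ldha, the triose phosphate isomerase and a lactate dehydrogenase chain, differed by −3.71 and −2.92, and Gapdh by −3.09. Counts of Gapdh, Eno1 and Eno1b can hold reads of near-identical copies. The glucose transporter Slc2a3 (0.704), the hexokinase Hk2 (0.24), the regulator Pfkfb3 (0.88) and the pyruvate dehydrogenase kinase Pdk1 (1.13) were not apart, and Eno2 was higher (1.16) on the CPM scale but not with TMM or median-of-ratios factors.

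Messages of protein turnover and of the cytoskeleton were low in the Lars2-rich runs as well. Of 29 counted proteasome UTRs 22 were lower and 0 higher, with a median of −2.23. Psmb8, a catalytic subunit of the immunoproteasome, had 42.04 to 50.4 CPM against 340.4 to 712 CPM and differed by −3.203. Psmb9 and Psmd11 differed by −1.33 and −1.18, while Psme3, an activator of the proteasome, was not apart at 0.81. Of 20 counted actin cytoskeleton UTRs 15 were lower and 0 higher, with a median of −2.25. The shares over all counted UTRs, for both lists, were 19.3% lower and 23.4% higher. Actb, the beta-actin gene, had 1442, 1444, 1555, 2593 and 1839 CPM against 8843, 9162, 12785 and 13733 CPM and differed by −2.66. The actin-binding proteins Tmsb4x, Pfn1 and Tmsb10 differed by −3.43, −3.303 and −2.54. Actin and thymosin genes have processed copies in the genome, so these counts may include reads of copies.

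The endoplasmic reticulum list had UTRs in both directions. Of 18 counted UTRs 9 were lower and 4 higher, with a median of −1.03, and with TMM factors 10 were lower and 2 higher. Over all counted UTRs 19.3% were lower and 23.4% higher, so the higher share of the list was near that of all. The lower ones included folding enzymes and chaperones, among them Pdia3 at −3.16, P4hb at −2.302 and Canx at −1.598. The higher ones were Edem1 (1.998), a factor of the degradation of misfolded proteins, Syvn1 (1.42), the ubiquitin ligase of that route, Dnajc3 (1.402) and the stress sensor Atf6 (1.401). Edem1 had 1400.1, 1295, 1446, 829 and 963 CPM against 276, 263, 328 and 283 CPM.

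The Zfp zinc finger genes formed the largest list on the other side. Of 116 counted UTRs, of 311 named, 62 were higher and 2 lower (43 and 4 with TMM factors), with a median difference of 1.18. Over all counted UTRs 23.4% were higher and 19.3% lower. Most of these genes encode transcription factors, many of the KRAB type that represses transposable elements. Beside Zfp451 and Zfp672, Zfp871 had 485 to 1114 CPM against 25.3 to 142 CPM and differed by 3.36, and Zfp652 differed by 2.61. The lower UTRs were those of Zfp622 (−1.401) and Zfp143 (−1.01). The list's median stayed above 0 under every setting tried, between 0.49 and 1.35. Only 116 of 311 passed the floor, and members that passed through the Lars2-rich runs alone had to be high there.

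The replication-dependent histone genes split within 1 family. Their mRNAs end in a stem-loop and carry no poly(A) tail in dividing cells. Of 27 named UTRs, 9 were counted, 6 higher and 2 lower, where 23.4% of all counted UTRs were higher and 19.3% lower. All 6 higher ones had a Lars2-poor mean of 2.57 to 10.9 CPM, under the floor of 25 CPM. They were thus counted only through their level in the Lars2-rich runs. TMM factors left 3 higher and 2 lower of 6 counted, and averaging near-identical runs 2 higher and 2 lower of 4. H1f2, a linker histone, had 135, 125, 98.7, 208 and 228 CPM against 3.26, 9.64, 16.6 and 14.2 CPM and differed by 3.39. The core histone gene H4c4 had 36.4, 34.99, 69.1, 72.5 and 56.05 CPM against 3.01, 6.25, 16.2 and 7.34 CPM and differed by 2.19. H2ac23 and H2ac24, both of histone H2A, went the other way with 41.6, 49.98, 19.7, 47.3 and 45.5 CPM against 442, 649.5, 823 and 536 CPM and 20.8, 29.99, 49.4, 59.9 and 10.5 CPM against 457, 641, 829 and 534 CPM. Their differences of −3.77 and −4.13 were larger in size than the median of the ribosomal protein list. Both had nearly the same level in each Lars2-poor run, and whether they share reads was not tested.

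Below the floor the histones leaned the same way as H1f2. Of the 27 named UTRs, 24 had a higher mean in the Lars2-rich runs, the exceptions being H2ac23, H2ac24 and H2ac10, and in 13 every Lars2-rich run exceeded every Lars2-poor run. Over all 14793 UTRs with a count in the 9 runs, with no floor, 52.8% had a higher mean in the Lars2-rich runs, 17.5% had no overlap in this direction and 16.2% none in the other. The sum over all 27 histone UTRs was 677, 805, 706, 1131 and 1272 CPM in the Lars2-rich runs and 955, 1392, 1994 and 1253 CPM in the Lars2-poor runs, and the sides overlapped. H2ac23 and H2ac24 together had 62.5, 79.97, 69.1, 107 and 56.05 CPM against 898, 1290.5, 1651 and 1071 CPM. The list was thus not uniform, and its median of 2.19 turned negative with a floor of 50 CPM and with near-identical runs averaged. Among the replication-independent histones, whose mRNAs are polyadenylated, H2az1 was lower, with 41.6, 39.99, 39.5, 59.9 and 59.6 CPM against 351, 324, 301 and 365 CPM and a difference of −2.699. H2ax (−0.13), H2az2 (−0.89) and H1f0 (−0.83) were not apart. With TMM factors 2 of the 4 counted replication-independent UTRs were lower.

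Splicing and chromatin genes had members on both sides. Of 29 counted Hnrnp and Srsf UTRs 8 were higher and 4 lower, shares near the 23.4% and 19.3% over all counted UTRs. TMM factors gave 5 higher and 7 lower, and median-of-ratios factors 5 and 5. The median of 0.38 was −0.068 with TMM factors. Srsf1, a splicing activator, had 2097, 2179, 2315, 2552 and 2732 CPM against 185, 367, 618 and 695 CPM and differed by 2.500. Hnrnpa2b1 differed by 1.305, while Hnrnpu (0.38) and Srsf2 (0.61) overlapped and Hnrnpc (−1.56) was lower. Of 38 UTRs of chromatin regulators, all of them counted, 9 were higher and 5 lower, a higher share like that over all UTRs. With TMM factors 6 were higher and 8 lower, and the median of 0.069 took either sign depending on the scaling. Kmt2d, a histone H3 methyltransferase, had 662 to 1155 CPM against 128 to 385 CPM and differed by 1.67. Tet3 and Nsd1 differed by 2.16 and 2.17, Kmt2a was not apart at 0.75, and Ezh2, the methyltransferase of the Polycomb complex, was lower at −1.81.

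**Figure D4:**
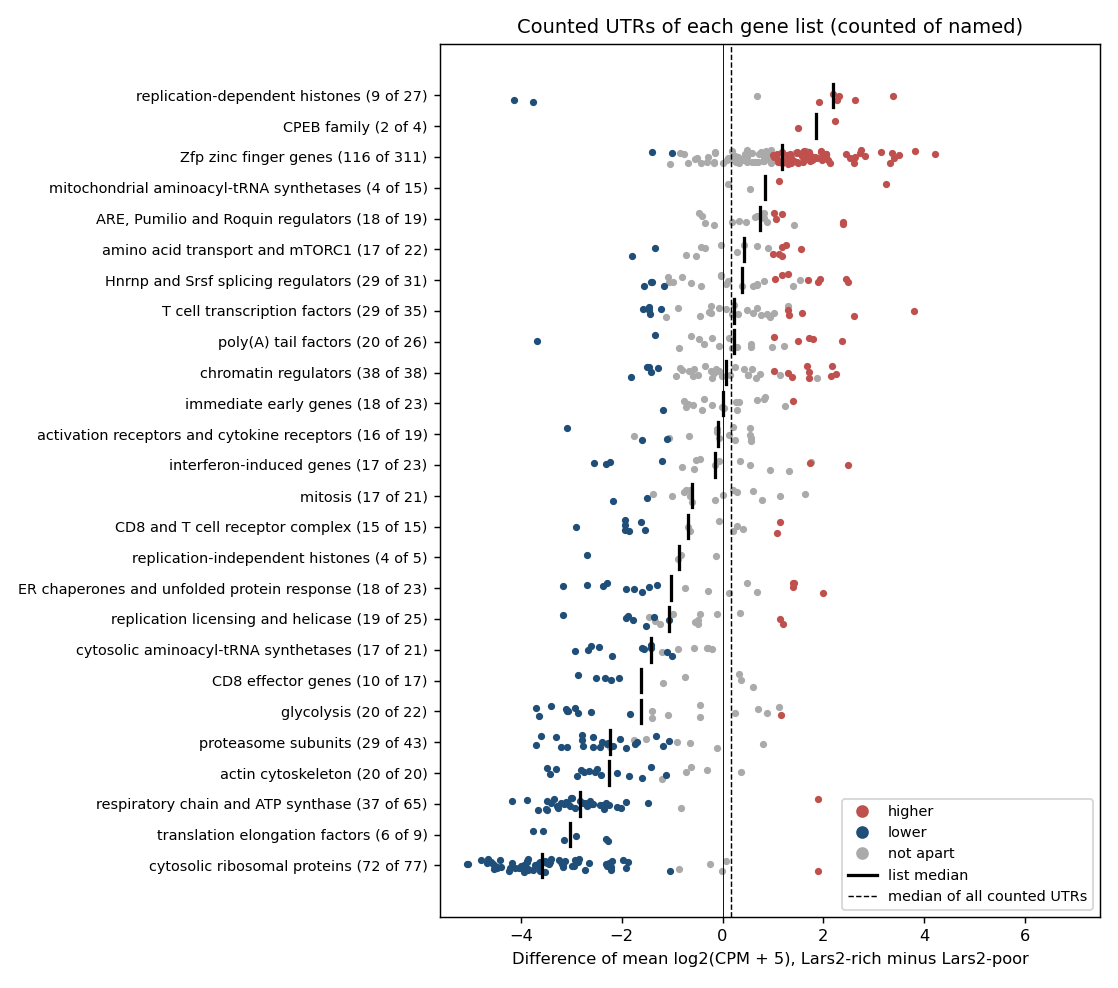
Difference of mean log2(CPM + 5), Lars2-rich minus Lars2-poor, for the counted UTRs of 26 gene lists; each point is 1 UTR, black bars are list medians and the dashed line is the median of 0.17 over all 6861 counted UTRs. Ribosomal protein UTRs lie lowest with a median of −3.59, and the points of several lists, among them the replication-dependent histones, spread over both sides of 0.

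The genes of CD8 T cell function did not differ as 1 group. Of 10 counted effector UTRs, of 17 named, 5 were lower and 0 higher, against 19.3% and 23.4% of all counted UTRs. Gzmb, the granule protease granzyme B, had 291, 245, 232, 545 and 466 CPM against 857, 2261, 4318 and 4391 CPM and differed by −2.86. Srgn, the proteoglycan of the granules, and Nkg7, a protein of their membrane, differed by −2.52 and −2.34, and the protease inhibitor Serpinb6b by −2.05. The ligand and cytokine genes Fasl (0.36) and Tnf (0.61) were not apart.

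All 15 named UTRs of the CD8 and T cell receptor list were counted, 7 lower and 2 higher, with a median of −0.69. Over all counted UTRs 19.3% were lower and 23.4% higher. The listed genes Cd2, Cd247, Trac, Trbc1 and Trbc2 had no named UTR and were not measured. Cd3g, a signalling chain of the receptor, had 31.2, 44.98, 34.5, 50.4 and 42.04 CPM against 481, 450.5, 243 and 232 CPM and differed by −2.905. Thy1, a surface glycoprotein of T cells, had 307, 439.8, 331, 444 and 361 CPM against 780.1, 1414, 1927 and 2029 CPM and differed by −1.94. The receptor chains and adaptors Cd3d (−1.61), Lat (−1.86) and Zap70 (−1.93) were also lower. Cd8b1 was lower, with 187, 149.9, 173, 170.1 and 154 CPM against 649, 954, 517 and 556 CPM and a difference of −1.93, although its partner chain Cd8a differed by 0.201 and overlapped. Cd28, the costimulatory receptor, was higher, with 1353, 1464, 1505, 1260.3 and 1209 CPM against 497, 675, 797 and 614 CPM, and its difference of 1.08 was close to the limit of 1. With TMM and with median-of-ratios factors 0 UTRs of the list were higher. Ptprc, which encodes CD45, was abundant in all 9 runs, at 1500.2 to 1739 against 854 to 1643 CPM, and not apart.

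Receptors of activated T cells mostly overlapped between the sides. Of 16 counted UTRs 3 were lower, 0 higher and 13 not apart, a lower share near the 19.3% over all counted UTRs. Il2ra, which encodes the alpha chain of the IL-2 receptor, had 677, 689.8, 745, 996 and 1114 CPM against 546, 623, 1354 and 1349 CPM and differed by −0.103. Ctla4 (0.56), an inhibitory receptor, and Tnfrsf9 (−0.67), which encodes the costimulatory 4-1BB, overlapped too. Tnfrsf4, which encodes the costimulatory receptor OX40, was lower, with 9.87 to 45.5 CPM against 151 to 408 CPM and a difference of −3.08, as were Tnfrsf18 (−1.59) and Il2rb (−1.09). Of 18 counted immediate early UTRs, 16 were not apart, Btg1 (0.68), Klf6 (−0.42) and Btg2 (1.24) among them. Fosl2 was higher (1.398) and Jund lower (−1.18), both shares below those over all counted UTRs. Under TMM scaling 0 UTRs of this list were higher and 4 lower, and with median-of-ratios factors 1 and 3.

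Of 29 counted UTRs of T cell transcription factors, 5 were higher and 5 lower, both near or below the shares over all counted UTRs. TMM factors gave 3 higher and 7 lower, and median-of-ratios factors 3 and 6. Irf1, an interferon regulatory factor, had 224, 249.9, 163, 63.01 and 59.6 CPM against 5.01, 7.03, 4.87 and 2.203 CPM and differed by 3.799. Its Lars2-rich values were themselves divided, with the 3 D1 runs above both RIP8 runs. Rel, the NF-κB subunit c-Rel, differed by 2.61, Nfatc1 by 1.58 and the Ikaros family members Ikzf2 and Ikzf3 by 1.32 and 1.29. The lower ones were Gata3 (−1.58), Id2 (−1.47), Nfkb1 (−1.46), Tox (−1.43) and Irf8 (−1.22). Runx3 (−0.28), the factor of the CD8 lineage, and Tbx21 (0.078), which encodes T-bet, were not apart. The interferon-induced list had 2 higher and 4 lower UTRs of 17 counted, where 23.4% and 19.3% were so over all UTRs. Samhd1, a nucleotide hydrolase, had 2231 to 3979 CPM against 308 to 758 CPM and differed by 2.49, and Gbp4 by 1.74, whereas Gbp2 (−2.23) and Bst2 (−2.32) were lower.

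Most genes of the cell cycle were lower or overlapped. Of 19 counted UTRs of replication licensing 7 were lower and 2 higher, against 19.3% and 23.4% of all counted UTRs, with a median of −1.06. TMM factors gave 0 higher and 11 lower, and median-of-ratios factors 0 and 12. Mcm7 differed by −3.17, Mcm6 by −1.37 and Mcm5 by −1.06, all subunits of the replicative helicase, and Mcm3 (−0.99) overlapped. Of 17 counted mitosis UTRs 2 were lower, Kif23 (−2.17) and Aurka (−1.501), and 15 were not apart, including the proliferation marker Mki67 (−0.64), Birc5 (0.61) and Kif11 (0.29). The lower share of 2 of 17 was below the 19.3% over all counted UTRs, but 8 of 18 were lower with TMM factors and 5 of 18 with median-of-ratios factors.

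CPEB4 itself belongs to a family of which 2 of 4 UTRs were counted, both higher in the Lars2-rich runs, where 23.4% of all counted UTRs were higher. So few members give no result about the family. Cpeb4 had 125, 110.0, 123, 195 and 126 CPM in the Lars2-rich runs and 12.03, 16.2, 47.1 and 34.3 CPM in the Lars2-poor runs (UTR start 31931533 on chromosome 11). All Lars2-rich runs exceeded all Lars2-poor runs, and the difference was 2.24 with a pooled SD of 0.55. Among the Lars2-rich runs the 2 labelled KO had 110.0 and 126 CPM and the 3 labelled WT 123 to 195 CPM, and among the Lars2-poor runs KO had 16.2 and 47.1 and WT 12.03 and 34.3 CPM, so the labelled genotypes overlapped on both sides. The labels do not say which segment of Cpeb4 the knockout removes, so these 3′ UTR counts do not check the genotype. Cpeb2 had 36.4, 44.98, 29.6, 66.2 and 52.5 CPM against 12.03, 14.1, 10.96 and 13.5 CPM and differed by 1.49. Its Lars2-poor mean of 12.6 CPM was under the floor, so it was counted only through the Lars2-rich runs. Cpeb3 and Cpeb1 stayed under the floor, with at most 10.4 and 0.521 CPM in any run.

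Other regulators that act on 3′ UTRs and poly(A) tails were mixed. Of 20 counted poly(A) factors 5 were higher and 2 lower, against 23.4% and 19.3% of all counted UTRs. TMM factors gave 3 higher and 4 lower, and median-of-ratios factors 3 and 4. Pabpc1, which encodes the main poly(A)-binding protein of the cytoplasm, had 297, 159.9, 237, 939 and 144 CPM against 8721, 5413, 2093 and 1691 CPM and differed by −3.69. Its mRNA is a textbook member of the class with a terminal oligopyrimidine start. The deadenylase subunits Cnot6l (935 to 1218 against 345 to 477 CPM) and Pan3 (1.801) and the ubiquitin ligase Cnot4 (2.37) were higher, and Pabpn1 (0.12), the nuclear poly(A)-binding protein, overlapped. Among proteins that bind AU-rich, Pumilio or Roquin sites, 5 of 18 were higher and 0 lower, with a median of 0.75 that stayed above 0 under all settings tried. The higher share was near that over all UTRs, and 2 were higher with TMM factors and 2 with median-of-ratios factors. Rc3h1 and Rc3h2, which encode the Roquin proteins, had 469 to 575 CPM against 75.7 to 117 CPM and 335 to 463 CPM against 53.1 to 93.3 CPM. They differed by 2.39 and 2.398, Zfp36l2 by 1.06 and Celf1 by 1.03, while Celf2 (−0.46), Tnrc6b (1.41) and Pum2 (−0.36) were not apart.

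The amino acid transport and mTORC1 list had 6 higher and 2 lower UTRs of 17 counted, against 23.4% and 19.3% over all counted UTRs. TMM factors gave 0 higher and 3 lower, and median-of-ratios factors 1 and 3. The higher calls were thus lost or nearly so under other scalings. Slc38a2, a neutral amino acid transporter, had 531, 569.8, 612, 923 and 862 CPM against 178, 253, 420.0 and 421 CPM and differed by 1.18. Tsc1, which restrains mTORC1, differed by 1.55, and Rptor, the defining subunit of mTORC1, by 1.002. The transporter chain Slc3a2 was lower (−1.35), while its partner Slc7a5 (−0.53), Slc38a1 (0.91) and Ddit4 (−0.43) overlapped.

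The direction of a UTR went with the length of its gene. In genes that span under 5 kb in RefSeq, 53.7% of 484 counted UTRs were lower and 5.99% higher, with a median difference of −1.41. From 5 to 20 kb 25.2% of 1829 were lower and 17.2% higher, and from 20 to 50 kb 14.4% of 1790 were lower and 23.4% higher, with medians of −0.20 and 0.27. From 50 to 100 kb 6.54% of 978 were lower and 30.9% higher, and over 100 kb 6.08% of 658 were lower and 33.7% higher, with a median of 0.64 in both. The median was higher with each step of length up to 50 to 100 kb and was the same, to 2 decimals, beyond. Under TMM and median-of-ratios scaling the middle bin, 20 to 50 kb, turned to −0.17 and −0.048, while the order from short to long stayed. Leaving out ribosomal protein and respiratory chain genes, the genes under 5 kb still had a median of −1.15, with 46.2% of 413 lower and 6.78% higher. The median gene span was 37.9 kb for the higher, 12.3 kb for the lower and 28.1 kb for the UTRs not apart. Span here includes introns, so it is not the length of the mRNA. The relation is across genes of the same 9 runs, which are not independent of each other, and its cause was not tested.

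**Figure D5:**
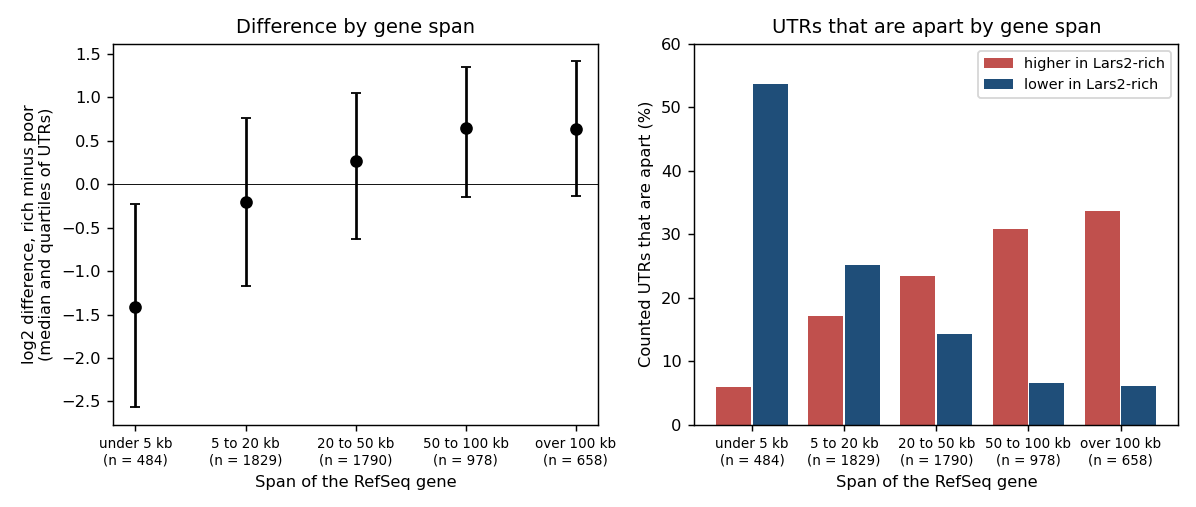
Left, median difference (Lars2-rich minus Lars2-poor, log2 scale) of counted UTRs by the span of their RefSeq gene, with bars from the lower to the upper quartile of UTRs; right, percent of UTRs that are higher or lower. The medians run from −1.41 under 5 kb to 0.64 over 100 kb, and the percent lower goes from 53.7 to 6.08.

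Directions were also counted by the level of the UTR. From 25 to 50 CPM 17.4% of 2186 UTRs were higher and 19.4% lower, and over 500 CPM 34.5% of 267 were higher and 27.3% lower. The higher share thus grew with the level, and the median difference was −0.021 in the lowest class and 0.38 in the highest.

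Among the 200 UTRs of the highest mean level, 6 were closest to no difference. Bcl2, the survival factor, had 879.6, 909.7, 888, 3251 and 3486 CPM against 1131, 887, 2441 and 1974 CPM, so its mean difference of 0.034 hides a wide spread, with a pooled SD of 0.91. Apobec3, a cytidine deaminase that restricts retroviruses, differed by 0.082 with a pooled SD of 1.01, with 1176, 1319.5, 1293, 583 and 515 CPM against 2765, 1186, 428 and 375 CPM. In contrast Fxyd5, a regulator of the sodium pump, had 640.2, 685, 642, 482 and 624 CPM against 619.7, 652, 489.8 and 528 CPM and a pooled SD of only 0.19. Csnk1a1, a casein kinase, had 475 to 772 CPM against 575 to 830.4 CPM and differed by −0.096. Ccnd2, which encodes cyclin D2, differed by −0.092, with 756 to 1329.5 CPM against 728 to 1595 CPM. The sixth was Il2ra, given above.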

How the data were processed

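Whole-number read counts for 20586 3′ UTR rows were deposited, with a column for each run and runs not pooled, per the file headers. Software named in the submitters' processing notes was featureCounts, Bowtie (1.2.3), Bowtie2 (2.2.2) and R (3.5.1), with the build mm10. How multi-mapped reads and strand were handled, and which annotation served, is not given in the sources used here. All columns matched a sample by name, and 9 of 20 were used.

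Rows carry a transcript identifier and a UTR start. The start equalled that of a RefSeq gene (GRCm38.p6) in 3828 rows, against 6 after a shift of 1000000 bases, and 16698 rows received a symbol by position, 606 of them through an older symbol. A gene can have several UTR rows. CPM were computed without the Lars2 row, and differences are of mean log2(CPM + 5). UTRs with a mean of at least 25 CPM were counted. No p-value was computed: the sides were chosen from the counts, mix the labelled groups and contain near-identical runs. A pooled SD is taken over the runs of both sides on the log2 scale.

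Named genes were the 12 with the widest gap in each direction, up to 4 of the highest mean level in each list, and the 6 with the smallest difference among the 200 most abundant. Some genes that these rules name are not reported here. Further members of lists named in the text were chosen after their values were seen. Members, lists and rules were chosen with earlier results of these data known. Python 3.11.15, pandas 2.3.3, scipy 1.17.1 and, for TMM factors, edgeR 4.0.16 in R 4.3.3 were used. The calling rule was run on simulated counts drawn from a single common profile, with independent noise between runs. Some real runs were near-identical, so the simulation gives no error rate for them. Alternatives were other scalings, floors, pseudocounts and limits, equal depth, batch 2 alone, averaged near-identical runs and each run left out.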

Additional observations from a re-analysis of the deposited data

Results flagged for a closer look

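A single run stood far from the others of its side, by Dixon's criterion at the 95% level, in 10 of 128 groups of runs examined. The groups share runs, some of them near-identical, so the rate of about 1 in 20 for independent values does not apply. Of these 10 cases, WT IP D1 batch 3 accounted for 5, all on the Lars2-poor side. It had the fewest rows with a count at equal depth, 9604, and the highest share of the 10 leading rows, 8.53%. Its summed level was the highest of its side for the respiratory chain and ATP synthase, 9068 CPM, and its CD8 and T cell receptor sum was the lowest, 6178 CPM. Among the genes examined, Rps26 stood apart in it, at 2024 CPM. KO IP D1 batch 3 had the smallest total without the Lars2 row on its side, 2464476 counts.

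On the Lars2-rich side, WT input RIP8 batch 1 stood apart in 3 groups. Its CPEB family sum was 265 CPM, its poly(A) factor sum 5728 CPM and its Has3 level 123 CPM, the last the lowest of the 5. KO input D1 batch 2 stood apart with a CD8 and T cell receptor sum of 7532 CPM. These values belong to single runs and were not followed further.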

How the results depend on the processing

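None of the 364 listed or named UTRs that were apart changed sign under the 22 alternatives to the setting used. Of 272 that were not apart, 83 changed sign under at least 1. For UTRs apart this was largely fixed in advance and is no measure of stability. Without overlap, the sign cannot turn when runs are left out or averaged, or when a floor, pseudocount or limit changes. TMM and median-of-ratios factors moved the median by −0.45 and −0.33, less than the limit of 1. Counts of UTRs apart stayed within 1.5 times of 1606 higher and 1325 lower, with these exceptions. TMM factors left 990 higher, and a limit of 2 on the log2 difference left 560 higher and 612 lower. Leaving out each run in turn gave 1459 to 1752 higher and 1272 to 1405 lower. Counts thinned to equal depth gave 1454 and 1154, batch 2 alone gave 1680 and 1426, and averaged near-identical runs gave 1723 and 1536. Leaving ribosomal protein and respiratory chain UTRs out of the totals, an alternative chosen after seeing the data, gave 1524 and 1415.

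The medians by gene span, from the shortest bin to the longest, were −1.87, −0.66, −0.17, 0.18 and 0.23 with TMM factors. They were −1.74, −0.54, −0.048, 0.31 and 0.34 with median-of-ratios size factors, and −0.13, −0.032, 0.067, 0.21 and 0.17 with no floor beyond 1 count. The bin of 20 to 50 kb changed sign under both scalings, which shift all UTRs down by construction. Under 5 kb the median was −1.02 with a floor of 10 CPM, −1.88 with a floor of 50 CPM, −1.10 with a pseudocount of 20 CPM and −1.27 in batch 2 alone. With each run left out, the medians ranged from −1.48 to −1.29, −0.25 to −0.13, 0.15 to 0.34, 0.44 to 0.73 and 0.52 to 0.75. The cause of these changes was not tested.

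Within batch 2, 11 replication licensing and 4 mitosis UTRs were lower and 3 amino acid transport UTRs higher. Besides the lists named above, the medians of activation receptors, immediate early genes, T cell transcription factors, poly(A) factors, amino acid transport and interferon-induced genes crossed 0 under at least 1 alternative. No paired analysis was possible because the values come from no test, runs are numbered only in accession order and the sides are not labelled groups. The alternative of removing other dominant UTRs was not run, since 0 UTRs other than Lars2 held over 5% of a run. Depth limits low UTRs in the Lars2-rich runs, where 1 count is 3.15 to 5.205 CPM.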
